A study of Homo sapiens with 24 samples.

Results

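The replication-dependent histone genes encode the H1, H2A, H2B, H3 and H4 proteins that package newly copied DNA. Members were all probe sets whose gene symbols all belong to the replication-dependent H1, H2A, H2B, H3 and H4 families in the older or the newer histone naming, and each probe set was kept on its own. This gave 113 of the 49293 probe sets on the array that are not array controls, and these 113 stood for 69 genes. Of them, 6 measured H1, 28 H2A, 41 H2B, 18 H3 and 19 H4 genes, and 1 was shared by an H2A and an H3 gene. The genes lie on chromosome 6 (90 probe sets), chromosome 1 (22) and chromosome 12 (1). Altogether 37 genes had more than 1 probe set, 8 probe sets carried 2 symbols, and 1 measured the transcribed pseudogene H2BC20P. A suffix of s or x marked 55 of the probe sets as holding probes that match several transcripts, so that values of near-identical histone genes are uncertain and may be split between them.

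Messenger RNAs of these genes are made mainly in S phase and normally end in a stem-loop instead of a poly(A) tail. The stem-loop is bound by SLBP, and the end is cut by a complex that contains the U7 small nuclear ribonucleoprotein and CPSF subunits. The genes lie in clusters within a nuclear body organised around NPAT and FLASH, and replication-independent variants such as H3.3 are encoded elsewhere by polyadenylated messages.

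RNA of U2-OS and SJSA-1, established human osteosarcoma cell lines, was measured on 24 Affymetrix PrimeView arrays. Each line had been kept for 6 h with DMSO or with 50, 200 or 800 nM THZ531, an inhibitor of the transcription kinases CDK12 and CDK13, and each of the 8 groups had 3 arrays. The question addressed was how expression changed with the dose of the inhibitor in each line. The sources used here do not say whether the 3 replicates of a group were separate cultures, so the p-values reflect spread among arrays that may be of technical origin only, and how the RNA was primed for labelling is not given in the sources used here. Because these messages normally lack a poly(A) tail, whether the values reflect all histone RNA or mainly a polyadenylated part cannot be told. In such bulk RNA, a change in the number of cells in S phase and a change in RNA per cell cannot be told apart.

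Values are log2 intensities, and array medians lay between 30.1 and 33.6 on the linear scale. MDM2, which is amplified in SJSA-1, stood at a mean log2 intensity of 7.18 under DMSO in U2-OS and at 10.66 in the other line. Although the labels' extraction text mentions brain tissue, 0 of 11 neuronal and glial markers and 0 of 10 leukocyte and endothelial markers exceeded an intensity of 100 in DMSO, while 5 of 12 osteoblast markers did so in U2-OS and 1 in SJSA-1. Most histone probe sets were dim as well. Only 15 members in U2-OS and 10 in SJSA-1 exceeded an intensity of 100 in DMSO, and the number of arrays and the signal over background limit the precision of the others. The values carry no detection call, so for probe sets below the array medians a difference is one of measured intensities and not an expression ratio.

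In SJSA-1 cells most histone probe sets rose after THZ531, with a median log2 change of 0.36 at 50 nM, 0.52 at 200 nM and 0.46 at 800 nM, where all probe sets had medians of 0.04, 0.09 and 0.07. At an adjusted p under 0.05 from limma, 73 members were higher and 1 was lower at 50 nM, where 17.9% of all probe sets were higher and 20.1% lower. At 200 nM, 88 members were higher and 0 lower, with 30.1% and 20.9% of all probe sets, and at 800 nM 82 were higher and 1 lower, with 24.6% and 18.6%. Called rises of at least 2-fold were seen for 12, 22 and 22 members (10.6%, 19.5% and 19.5%), against 1.55%, 0.682% and 0.519% of all probe sets. By gene, 58 of the 69 genes had a probe set called higher at 200 nM. That count grows with the number of probe sets of a gene, and the same count over all genes is not given here. Splits by intensity were chosen after seeing the data. Among the 99 members with a mean over the 12 arrays of the line of 100 or less, 76.8% were higher at 200 nM, against 26.8% of all probe sets as dim. At 50 and 800 nM these shares were 61.6% against 13.4% and 71.7% against 17.7%. With a split by the DMSO mean, which was tried first, the shares were 77.7% of 103 members and 29% of all.

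Markers of cell types absent from these lines also moved at the low end of the scale. In SJSA-1 at 200 nM, 6 of 11 neuronal and glial markers and 5 of 10 leukocyte and endothelial markers were called higher and 0 lower, with 30.1% and 20.9% of all probe sets and with medians of 0.28 and 0.18 on the log2 scale. Their summed DMSO intensity lay between 303 and 329 and between 199 and 206. At 800 nM 3 and 1 of these markers were higher. The part in the histone result of whatever moved these low probe sets was not tested.

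U2-OS cells showed a smaller shift that appeared at higher doses. The median log2 change of the members was -0.01 at 50 nM, 0.06 at 200 nM and 0.12 at 800 nM, against 0, 0.02 and 0.01 over all probe sets. At 50 nM 0 members were higher and 1 was lower, where 0.491% and 0.521% of all probe sets were called. At 200 nM 7 were higher and 2 lower, with a background of 8.06% and 11.7%, so that the share higher was no larger than that of all probe sets. At 800 nM 31 were higher and 2 lower, with a background of 15.5% and 18.7%, and called rises of at least 2-fold were seen for 3 members (2.65%), close to the 1.47% of all probe sets. Of the 96 members with a mean over the line's arrays of 100 or less, 0%, 5.21% and 26% were higher at the 3 doses, against 0.256%, 5.47% and 11.1% of all probe sets as dim. The count higher at 200 nM was 4 without replicate 1 or 3 of DMSO, or without replicate 1 or 2 of 200 nM.

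**Figure D1:**
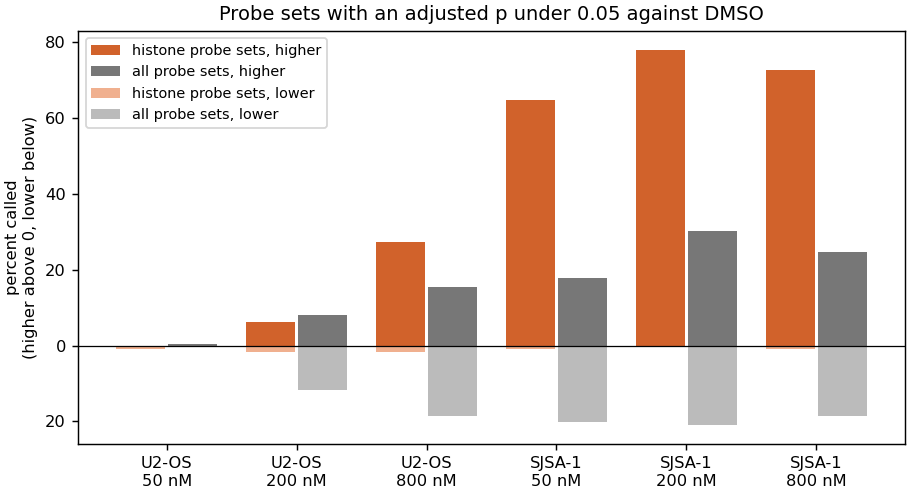
Percent of the 113 histone probe sets and of all 49293 probe sets with an adjusted p under 0.05 from limma against DMSO, higher above 0 and lower below 0, for each dose and line. In SJSA-1 the histone bars for higher calls stand above the bars of all probe sets at every dose, and in U2-OS only at 800 nM.

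These directions are relative to the normalization of the arrays. The poly-A controls, RNAs added to each sample before labelling, were brighter in treated samples, with log2 changes of 0.10, 0.55 and 0.94 for the rising doses in U2-OS. The SJSA-1 values were 0.51, 0.47 and 0.54. When the arrays were shifted so that these controls stayed level, the median of all probe sets moved to -0.10, -0.53 and -0.93 in U2-OS and to -0.47, -0.38 and -0.47 in SJSA-1, and the members' median in SJSA-1 was -0.15 at 50 nM, 0.05 at 200 nM and -0.09 at 800 nM. In U2-OS the shift turned 31 higher and 2 lower members at 800 nM into 1 higher and 105 lower. Relative to the median of all probe sets, which such a shift does not touch, 99, 105 and 101 of the 113 members lay above it in SJSA-1 and 50, 68 and 91 in U2-OS.

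**Figure D2:**
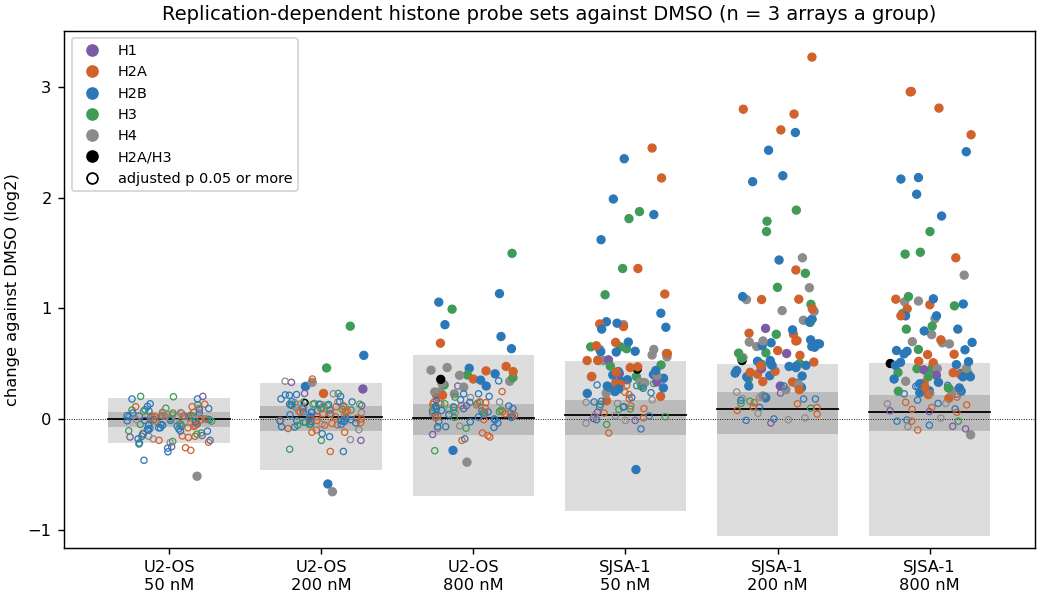
Change against DMSO on the log2 scale of each of the 113 histone probe sets (points, coloured by histone class, filled where the adjusted p is under 0.05), with the middle 50% (dark grey) and the middle 90% (light grey) of all probe sets and their median (line). In SJSA-1 most points lie above the median of all probe sets, and members of the H2A and H2B classes reach 3.27 and 2.59 at 200 nM.

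The largest rises in SJSA-1 belonged to H2A and H2B genes that were dim in DMSO. H2AC8, which encodes an H2A protein, stood at log2 intensities of 4.69, 5.19 and 5.46 on the 3 DMSO arrays by probe set 11731693_at. It stood at 7.66, 7.53 and 7.49 at 50 nM, at 8.35, 8.33 and 8.46 at 200 nM, and at 8.17, 7.91 and 8.12 at 800 nM. Every treated array was therefore above every DMSO array. The rise at 200 nM was 9.62-fold (log2 change 3.27, SE 0.15, adjusted p = 8.14e-10 from limma). The DMSO array at 4.69 lay below the array median, so this fold compares measured intensities and is not an expression ratio. In U2-OS the same probe set lay between 3.13 and 3.60 on all 12 arrays, with a log2 change of -0.12 at 800 nM that did not pass (adjusted p = 0.399). The other H2AC8 probe set, 11731694_s_at, rose in SJSA-1 by 2.80 at 200 nM and by 2.57 at 800 nM on the log2 scale.

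H2AC17, a further H2A gene, was at 3.35, 3.38 and 3.5 on the SJSA-1 DMSO arrays by probe set 11740124_at, and at 5.07, 4.34 and 4.21 at 50 nM. At 200 nM it reached 6.78, 5.67 and 6.04, and at 800 nM 5.98, 6.88 and 6.24. The treated arrays of this gene differed from each other more than those of H2AC8 but did not overlap with DMSO, where all 3 arrays were below the array median, and no fold is given (log2 change at 800 nM 2.96, SE 0.28, adjusted p = 1.37e-06 from limma). Its probe set 11740125_x_at rose by 2.61 at 200 nM and by 2.81 at 800 nM. In U2-OS the probe set 11740124_at lay between 2.41 and 2.98 on all arrays.

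H2BC15, which encodes an H2B protein, lay at 6.01, 5.72 and 5.88 on the DMSO arrays of SJSA-1 and at 8.29, 8.34 and 8.26 at 200 nM, a 5.38-fold rise. The 800 nM arrays, at 8.26, 8.22 and 8.37, overlapped with those of 200 nM (log2 change against DMSO 2.41, SE 0.09, adjusted p = 1.42e-10 from limma). In U2-OS its log2 change at 800 nM was 0.35 and did not pass (adjusted p = 0.0594). H2BC21, also an H2B gene, lay at 4.46, 4.55 and 4.27 in DMSO and at 7.05, 6.99 and 7 at 200 nM in SJSA-1 by probe set 11717090_a_at. It then stood at 6.63, 6.60 and 6.59 at 800 nM, below the 200 nM arrays and above all DMSO arrays, with a log2 change of 2.18 against DMSO. By probe sets 11758765_at and 11758766_x_at, which had the same values, H2BC21 rose by only 0.68 at 200 nM and 0.38 at 800 nM. H2BC8, the H2B partner of H2AC8, rose by 2.17 and 2.03 on the log2 scale at 800 nM by its 2 probe sets, from 4.09, 4.08 and 4.14 to 5.97, 6.43 and 6.41 by 11734796_s_at.

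**Figure D3:**
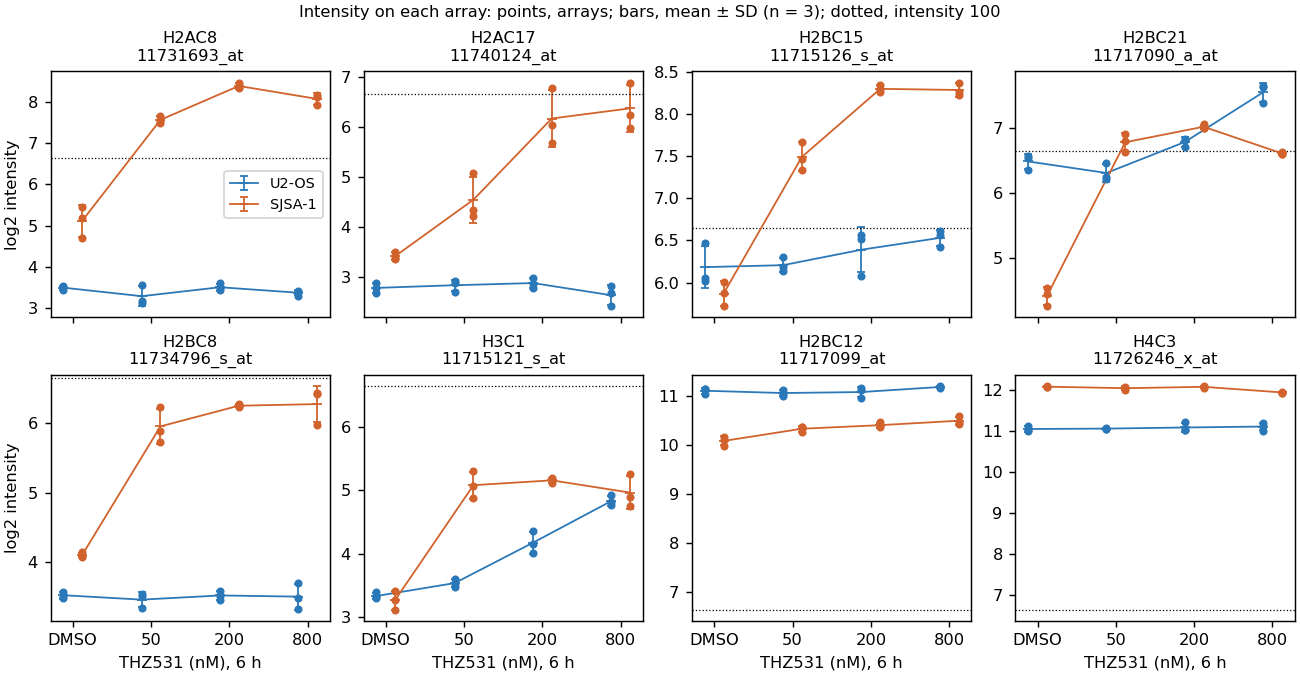
Log2 intensity on each array (points) with mean ± SD (n = 3) by THZ531 dose for 8 histone probe sets in U2-OS and SJSA-1, on a separate vertical scale for each gene. H2AC8, H2AC17, H2BC15 and H2BC8 rise in SJSA-1 and stay near their DMSO level in U2-OS, H3C1 and H2BC21 (11717090_a_at) rise in both lines, and H2BC12 (11717099_at) and H4C3 move little.

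The start regions of the genes with the largest SJSA-1 rises are shown because H2A and H2B genes often share 1 stretch of DNA between their starts and carry sequence elements that recur across the family. Each window holds 250 bases before to 50 bases after the start from RefSeq on GRCh38.p14, read 5′ to 3′ on the strand of the gene. Capitals mark the octamer ATTTGCAT, TATAAA and CCAAT on either strand. The windows are chr6:26216671-26216970 on the plus strand (H2AC8), chr6:27893136-27893435 on the minus strand (H2AC17), chr6:27838319-27838618 on the plus strand (H2BC15) and chr1:149886633-149886932 on the minus strand (H2BC21).
H2AC8: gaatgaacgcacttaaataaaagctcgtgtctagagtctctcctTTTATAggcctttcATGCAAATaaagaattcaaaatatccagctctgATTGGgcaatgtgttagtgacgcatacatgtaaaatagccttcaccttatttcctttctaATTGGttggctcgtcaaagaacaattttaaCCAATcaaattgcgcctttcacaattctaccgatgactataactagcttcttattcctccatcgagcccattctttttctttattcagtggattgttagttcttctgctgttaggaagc
H2AC17: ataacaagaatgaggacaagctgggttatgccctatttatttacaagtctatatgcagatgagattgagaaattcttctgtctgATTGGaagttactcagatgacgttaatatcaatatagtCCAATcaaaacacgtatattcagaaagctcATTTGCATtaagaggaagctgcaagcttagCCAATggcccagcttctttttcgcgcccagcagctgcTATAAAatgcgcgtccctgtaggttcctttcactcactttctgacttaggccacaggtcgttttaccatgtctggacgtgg
H2BC15: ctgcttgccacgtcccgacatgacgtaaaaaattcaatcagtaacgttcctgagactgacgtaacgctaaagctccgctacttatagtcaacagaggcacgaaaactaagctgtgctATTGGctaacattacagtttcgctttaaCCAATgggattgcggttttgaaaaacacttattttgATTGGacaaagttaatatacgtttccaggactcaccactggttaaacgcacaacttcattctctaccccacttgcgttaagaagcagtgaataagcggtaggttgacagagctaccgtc
H2BC21: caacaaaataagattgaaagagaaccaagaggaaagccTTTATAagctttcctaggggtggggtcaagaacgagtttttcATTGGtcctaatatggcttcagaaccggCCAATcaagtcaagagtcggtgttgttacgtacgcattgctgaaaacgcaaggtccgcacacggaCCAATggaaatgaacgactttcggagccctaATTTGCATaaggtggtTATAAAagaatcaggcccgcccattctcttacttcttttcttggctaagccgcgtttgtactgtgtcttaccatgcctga
The windows of H2AC8, H2AC17 and H2BC21 each hold 1 octamer, that of H2BC15 holds 0, and each of the 4 holds 3 CCAAT elements.

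Promoter windows were kept for 63 of the 69 genes, 67 windows in all, with more than 1 window for 4 genes. Among these matches, repeated windows and any on a chromosome without members were dropped, a step not applied to the windows of all genes. Windows of neighbouring genes can overlap and elements were counted on either strand. The same stretch of DNA can therefore count for an H2A and an H2B gene, and the windows are not independent. The octamer was present in 40.3% of them, against 1.77% of the 35116 windows of the table. It was found in 11 of 16 H2A windows and 15 of 20 H2B windows, in 1 of 12 H3 windows and in 0 of 13 H4 and 0 of 6 H1 windows. TATAAA was present in 65.7% of the histone windows against 11.5%, and CCAAT in 85.1% against 34.6%, with 3 of 13 H4 windows holding CCAAT. Such a match is a description of the letters only.

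In 12 pairs of member genes the windows overlapped on opposite strands with the genes leading away from each other, and 11 of these joined an H2A to an H2B gene. The other joined H3C4, by a start annotated at the same place as that of H2AC7, to H2BC7. H2BC8 and H2AC8 share 268 bases of their windows, and the highest log2 changes of their probe sets at 200 nM in SJSA-1 were 2.20 and 3.27. Other partners had unequal values. H2AC17 reached 2.75 where H2BC17 reached 0.53, H2BC15 reached 2.43 where H2AC15 reached 0.71, and H2BC21 reached 2.59 where H2AC20 reached 0.48. Both genes had a probe set called higher in 11 of the 12 pairs at this dose, at which 58 of the 69 member genes had one, so the count says little about pairs. In the remaining pair, H2AC1 and H2BC1, genes known for expression in testis, the highest changes were 0.14 and 0.00 and did not pass. Differences between partners were not tested.

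Log2 changes of at least 1 in SJSA-1 were found for probe sets of H3 and H4 genes too. H3C10, an H3 gene, lay at 3.77, 3.70 and 3.58 on the DMSO arrays by probe set 11732103_s_at, at 5.66, 5.61 and 5.4 at 50 nM, at 5.51, 5.31 and 5.59 at 200 nM and at 5.12, 5.17 and 5.28 at 800 nM. Every array at 50 and 200 nM lay above those at 800 nM, and in U2-OS it rose by 0.40 at 800 nM. The DMSO arrays of this probe set were below the array median, so no fold is given. By 11759076_at H3C10 rose by 0.60 at 200 nM in SJSA-1. The change of that probe set in U2-OS at 800 nM was 0.06 and did not pass (adjusted p = 0.608 from limma). The H3 genes H3C3, H3C12 and H3C2 rose by 1.69, 1.19 and 1.04 on the log2 scale at 200 nM. H4C12, an H4 gene among the brighter members, went from 6.28, 6.08 and 6.02 in DMSO to 7.34, 7.29 and 7.31 at 200 nM by probe set 11735775_at, without overlap between these groups.

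The H2A gene H2AC11 rose by 1.35 at 200 nM in SJSA-1 and by 0.44 at 800 nM in U2-OS by probe set 11759131_at. H2AC16, an H2A gene with 2 probe sets, rose by 1.08 and 1 in SJSA-1 at 200 nM and did not pass in U2-OS at 800 nM (adjusted p = 0.984 and 0.27 from limma). The pseudogene H2BC20P rose by 1.11 at 200 nM in SJSA-1. The 25 members not called in SJSA-1 at 200 nM had log2 changes between -0.03 (H1-3, a linker histone gene) and 0.30 (H2BC6, an H2B gene) and included both probe sets of H4C3.

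Each class had members that rose in SJSA-1. At 200 nM, where 30.1% of all probe sets were higher, 4 of 6 H1, 22 of 28 H2A, 33 of 41 H2B, 15 of 18 H3 and 13 of 19 H4 probe sets were called higher, with class medians of 0.38, 0.55, 0.49, 0.60 and 0.56 on the log2 scale. At 800 nM, where 24.6% of all were higher, the counts were 2, 20, 30, 17 and 12. The 2 of 6 H1 probe sets lay near that share, and the H1 median of 0.07 was close to that of all probe sets. Among H1 genes, which encode the linker histones, H1-5 had the highest change at 200 nM, 0.82. The testis linker histone H1-6 did not pass at either dose (log2 changes 0.24 and 0.07, adjusted p = 0.169 and 0.717 from limma). Among H3 genes, H3C1 (11715121_s_at) rose by 1.89 at 200 nM and 1.69 at 800 nM, and among H4 genes H4C4 rose by 1.46 and 1.30. Of 90 probe sets on chromosome 6, 73 were higher at 200 nM, and of 22 on chromosome 1, 14 were, again beside 30.1% of all. Of the 56 members with 1 symbol and neither the s nor the x suffix, 45 were higher at 200 nM, with a median of 0.53.

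The brightest probe sets of the 5 classes changed by between 0.00 and 0.77 at 200 nM and between -0.14 and 0.84 at 800 nM in SJSA-1 on the log2 scale. Shifted by the poly-A controls, the SJSA-1 rises of H2BC12 by 11717099_at at both doses and of H1-2 at 800 nM turned below 0. The other H2BC12 probe set, 11761490_at, rose by 1.44 at 200 nM and 1.83 at 800 nM, where those controls moved by 0.47 and 0.54. H4C3, which encodes histone H4, was at 12.10, 12.08 and 12.08 on the SJSA-1 DMSO arrays by probe set 11726246_x_at and at 12.09, 12.10 and 12.06 at 200 nM. At 800 nM it was at 11.96, 11.94 and 11.94, below all DMSO arrays by 0.14 on the log2 scale (SE 0.05, adjusted p = 0.0454 from limma), and this call was lost without 10 of the 12 arrays taken in turn, with adjusted p between 0.0501 and 0.107. The H2B probe set H2BC12 11717099_at, went from 9.99, 10.11 and 10.17 in DMSO to 10.44, 10.60 and 10.47 at 800 nM in SJSA-1, a 1.33-fold rise (adjusted p = 0.000244). The brightest H2A probe set, shared by H2AC18 and H2AC19 (11742657_x_at), rose 1.701-fold at 200 nM and 1.498-fold at 800 nM in SJSA-1. H1-2 (11742683_x_at) rose 1.51-fold and 1.32-fold at these doses, and H3C4 (11741186_at) by 0.77 and 0.84 on the log2 scale. Of the 10 members above 100 in DMSO, 8 were called higher at 200 nM and 7 at 800 nM, where 32.6% and 36.5% of all such probe sets were.

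Across doses in SJSA-1, the highest mean change, taken with its sign, was at 200 nM for 66 members (58.4%), at 800 nM for 36 (31.9%) and at 50 nM for 11 (9.73%), against 34.5%, 34.4% and 31.1% of all probe sets. In U2-OS it was at 800 nM for 77 (68.1%), at 200 nM for 30 (26.5%) and at 50 nM for 6 (5.31%), against 37.8%, 27% and 35.2%. From 50 to 800 nM, 25 members were higher and 6 lower in SJSA-1, with 20.5% and 15.9% of all probe sets, and 33 were higher and 0 lower in U2-OS, with 13.4% and 15.5%. The U2-OS direction turned with the shift by the poly-A controls, to 2 higher and 96 lower, and with both kinds of control, to 6 and 81. Relative to the median of all probe sets, 97 of the 113 members lay above it, a number that such shifts cannot change. H2AC17 (11740124_at) rose by 1.83 over this range in SJSA-1, and H2BC15 by 0.79. H3C10 (11732103_s_at) fell by 0.37 over the same range, after a rise of 1.79 at 200 nM against DMSO. Without replicate 2 of the SJSA-1 800 nM arrays, the number lower was 2 instead of 6.

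In U2-OS the largest rises were in H3 and H2B genes. H3C1, an H3 gene, went from 3.30, 3.31 and 3.39 in DMSO to 4.36, 4.15 and 4.01 at 200 nM and 4.92, 4.81 and 4.76 at 800 nM by probe set 11715121_s_at. No array of a higher dose overlapped with those of a lower one in these 3 groups, and it rose at 800 nM (log2 change 1.5, SE 0.08, adjusted p = 1.33e-08 from limma). Its probe set 11759077_at rose by 0.99 at 800 nM and by 0.46 at 200 nM, the latter below 0 after the shift by the poly-A controls and lost without replicate 1 of DMSO (adjusted p = 0.0631) or of 200 nM (0.0711). H2BC12, an H2B gene, stood at 4.65, 4.50 and 4.70 in DMSO and 5.62, 5.98 and 5.65 at 800 nM by probe set 11761490_at, a log2 change of 1.13, and H2BC21 rose 2.08-fold by 11717090_a_at, from 6.35, 6.56 and 6.54 to 7.63, 7.62 and 7.37. By 11758765_at the change of H2BC21 at 800 nM was 0.23 and did not pass (adjusted p = 0.0855 from limma).

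Smaller rises in U2-OS at 800 nM were those of the H2B gene H2BC4 (0.85 and 0.75 on the log2 scale by 2 probe sets) and the H2A gene H2AC7 (0.69). The H2B gene H2BC11 rose by 0.64 by 11741699_at and by 0.41 by 11741701_x_at. By 11741700_s_at it changed by 0.18 and did not pass (adjusted p = 0.13 from limma). The rises of H2BC4, of H2AC7 and of H2BC11 by 11741699_at lay below 0 after the shift by the poly-A controls. Those controls moved by 0.94 at this dose, close to the rises of H2BC12 (1.13), H2BC21 (1.06) and H3C1 by 11759077_at (0.99). After the shift only 1 member was called higher at 800 nM. With the deposited normalization the fit called 2 members lower. The probe set 11742669_s_at, shared by the H4 genes H4C14 and H4C15, went from 7.25, 7.31 and 7.51 in DMSO to 6.85, 6.83 and 6.85 at 50 nM, 6.59, 6.73 and 6.79 at 200 nM and 7, 7.02 and 6.89 at 800 nM. It was lowest at 200 nM, 1.57-fold below DMSO (log2 change -0.65, SE 0.08, adjusted p = 5.68e-05 from limma), and it was the member called lower at 50 nM. The H2B gene H2BC5 by probe set 11724021_at was 1.498-fold lower at 200 nM. Its fall of 0.28 at 800 nM (adjusted p = 0.049) was lost without any of 7 arrays taken singly, with adjusted p between 0.0568 and 0.187.

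Of 29 genes with at least 2 probe sets of their own, 18 had all of them higher at 200 nM in SJSA-1. A further 9 had some higher, and 2 (H4C3 and H4C9) had none called. Since 77.9% of all members were higher at this dose, these counts say little about agreement within a gene. In U2-OS at 800 nM, 6 of the 29 genes had all higher, 5 had some higher, 17 had none called and 1 had opposite calls. Probe sets were called in opposite directions for H2BC5 at 50 nM in SJSA-1 and at 800 nM in U2-OS, and for the pair H4C14 and H4C15 at 800 nM in U2-OS. In U2-OS at 800 nM the 3 probe sets of H2BC5 changed by -0.28, -0.07 and 0.30 on the log2 scale. In SJSA-1 all 3 were higher at that dose, by 0.63, 0.81 and 1.04. The probe set 11759256_at of H4C14 and H4C15 rose by 0.25 in U2-OS at 800 nM (adjusted p = 0.0246 from limma), where 11742669_s_at fell by 0.39, and H2BC12 rose by 1.13 by one probe set while the other, 11717099_at, changed by 0.08 and did not pass (adjusted p = 0.444). Probe sets 11758765_at and 11758766_x_at of H2BC21 had the same value on every array and were counted separately, as the rule for members asks.

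**Figure D4:**
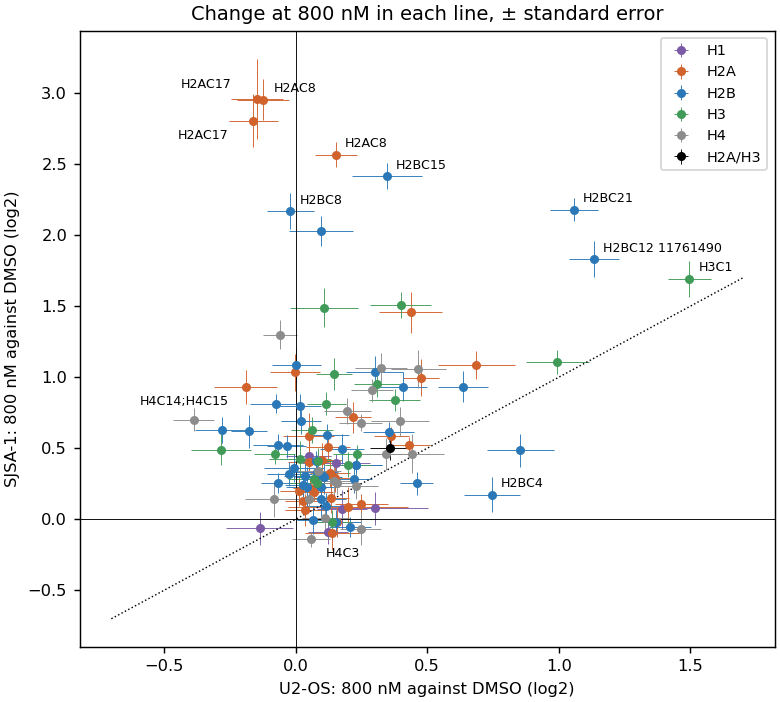
Change at 800 nM against DMSO on the log2 scale (± standard error) in U2-OS (horizontal) and SJSA-1 (vertical) for the 113 histone probe sets, coloured by class, with a dotted line where both are equal. H2AC8, H2AC17, H2BC8 and H2BC15 lie far above the line near 0 in U2-OS, H3C1 is at 1.5 and 1.69, and H2BC4 lies below the line.

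The difference between the lines was itself tested over all 24 arrays, and with the deposited normalization more members responded by more in SJSA-1 than the reverse. The response of SJSA-1 less that of U2-OS was called above 0 for 63 members and below 0 for 0 at 50 nM, with 11.9% and 15.2% of all probe sets. At 200 nM it was above 0 for 74 and below for 0, with 18.1% and 16.9%, and at 800 nM above for 49 and below for 1, with 19.6% and 16.6%. The members' median difference was 0.41, 0.49 and 0.27 on the log2 scale, against 0.03, 0.07 and 0.06 over all probe sets. These counts depended on the scaling. Shifted by the poly-A controls, the difference was above 0 for 13, 41 and 67 members and below for 0 at each dose, with a median of 0.00 at 50 nM. Shifted by the hybridization controls, it was above and below 0 for 24 and 13, 38 and 4, and 27 and 11 members, with a median of 0.00 at 800 nM. At the 3 doses 99, 97 and 90 members lay above the median difference of all probe sets. Such shifts move all probe sets alike and cannot change these numbers. Of the 31 members higher in U2-OS at 800 nM, 28 (90.3%) were also higher in SJSA-1, and these were 34.1% of the 82 higher there. Over all probe sets the shares were 39.3% and 24.7%, and 72.6% of all members were higher in SJSA-1 at that dose. The member with a smaller change in SJSA-1 was H2BC4 by 11759760_s_at, which went from 4.81, 4.36 and 4.72 to 5.30, 5.38 and 5.45 in U2-OS at 800 nM and from 3.88, 3.35 and 3.77 to 3.84, 3.69 and 3.99 in SJSA-1 (difference -0.57, SE 0.17, adjusted p = 0.0119 from limma).

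Under DMSO, with the deposited normalization, the lines differed in single histone genes in both directions. In SJSA-1, 33 members were higher and 30 lower than in U2-OS, shares close to the 27.4% and 28.3% of all probe sets. Shifted by the poly-A controls 2 were higher and 98 lower, and by both kinds of control 8 and 80, with the median of all probe sets at -0.92 and -0.48. H1-1, a linker histone gene, lay at 6.41, 6.64 and 7.18 in U2-OS and at 4.13, 3.99 and 4.28 in SJSA-1, a log2 difference of -2.61 (adjusted p = 1.41e-11 from limma). The log2 differences were -2.06 for H2BC21 by 11717090_a_at and -1.71 for H2BC11 by 11741700_s_at. They were -1.39 for H4C14 and H4C15 by 11742669_s_at and -1.21 for H2BC5 by 11724021_at. By 11758765_at the difference of H2BC21 was -0.03 and did not pass. That of H2BC11 was -1.02 by 11741701_x_at and -0.11 by 11741699_at, the latter not called (adjusted p = 0.397 from limma). By 11759256_at that of H4C14 and H4C15 was 0.08 and did not pass (adjusted p = 0.526 from limma). The H2A gene H2AC25 was higher in SJSA-1 by 1.63, H2AC8 by 1.62 (11731693_at) and H3C8 by 1.19 (11715100_at). H2BC8 was higher by 1.17 (11734797_x_at) and H4C3 by 1.07 (11726245_s_at). Differences were smaller by other probe sets, 0.87 for H2AC8 (11731694_s_at) and 0.58 for H2BC8 (11734796_s_at). Those of H3C8 were 0.26 by 11715101_s_at and 0.60 by 11715102_x_at. Of these, H2AC8 and H2BC8 were already higher in SJSA-1 before treatment, whereas H2BC21 by 11717090_a_at started lower there and had a larger change at 200 nM (difference 2.29).

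Genes that make and process histone RNA changed in both directions. For this and the next lists, the shares of all probe sets higher and lower were 30.1% and 20.9% at 200 nM and 24.6% and 18.6% at 800 nM in SJSA-1, and 8.06% and 11.7%, and 15.5% and 18.7% in U2-OS. Of 29 such genes, 6 were higher and 17 lower at 200 nM in SJSA-1, and 4 and 14 at 800 nM. In U2-OS 3 were higher and 7 lower at 200 nM, and 6 and 13 at 800 nM. The largest falls were those of CASP8AP2, which encodes FLASH, a factor of histone RNA processing, with log2 changes of -3.01 and -2.76 at 200 and 800 nM in SJSA-1 and of -1.15 and -1.9 in U2-OS. NPAT, the activator of histone transcription, fell by 1.99 and 2.06 in SJSA-1 and by 0.54 and 1.15 in U2-OS, with adjusted p between 5.34e-10 and 0.000268 from limma. TUT7, a uridylyltransferase that acts in histone RNA decay, fell by 1.11 in SJSA-1 and by 1.44 in U2-OS at 800 nM.

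Other genes of this list differed between the lines. CCNE1, the cyclin E1 that acts on NPAT with CDK2, fell by 1.64 in SJSA-1 at 800 nM and rose by 0.34 in U2-OS, below the 0.94 by which the poly-A controls moved there. ZNF473, which binds the U7 particle, fell by 1.37 in SJSA-1 and changed by 0.12 in U2-OS (adjusted p = 0.29). SLBP, the stem-loop binding protein, fell by 0.34 in SJSA-1 at 800 nM and rose by 0.38 in U2-OS, also below the move of the poly-A controls. The U7 subunits LSM10 and LSM11 fell by 0.43 and 0.54 in SJSA-1 and by 0.43 and 0.34 in U2-OS. The difference between the lines at 800 nM was called above 0 for 7 genes of this list and below 0 for 10.

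**Figure D5:**
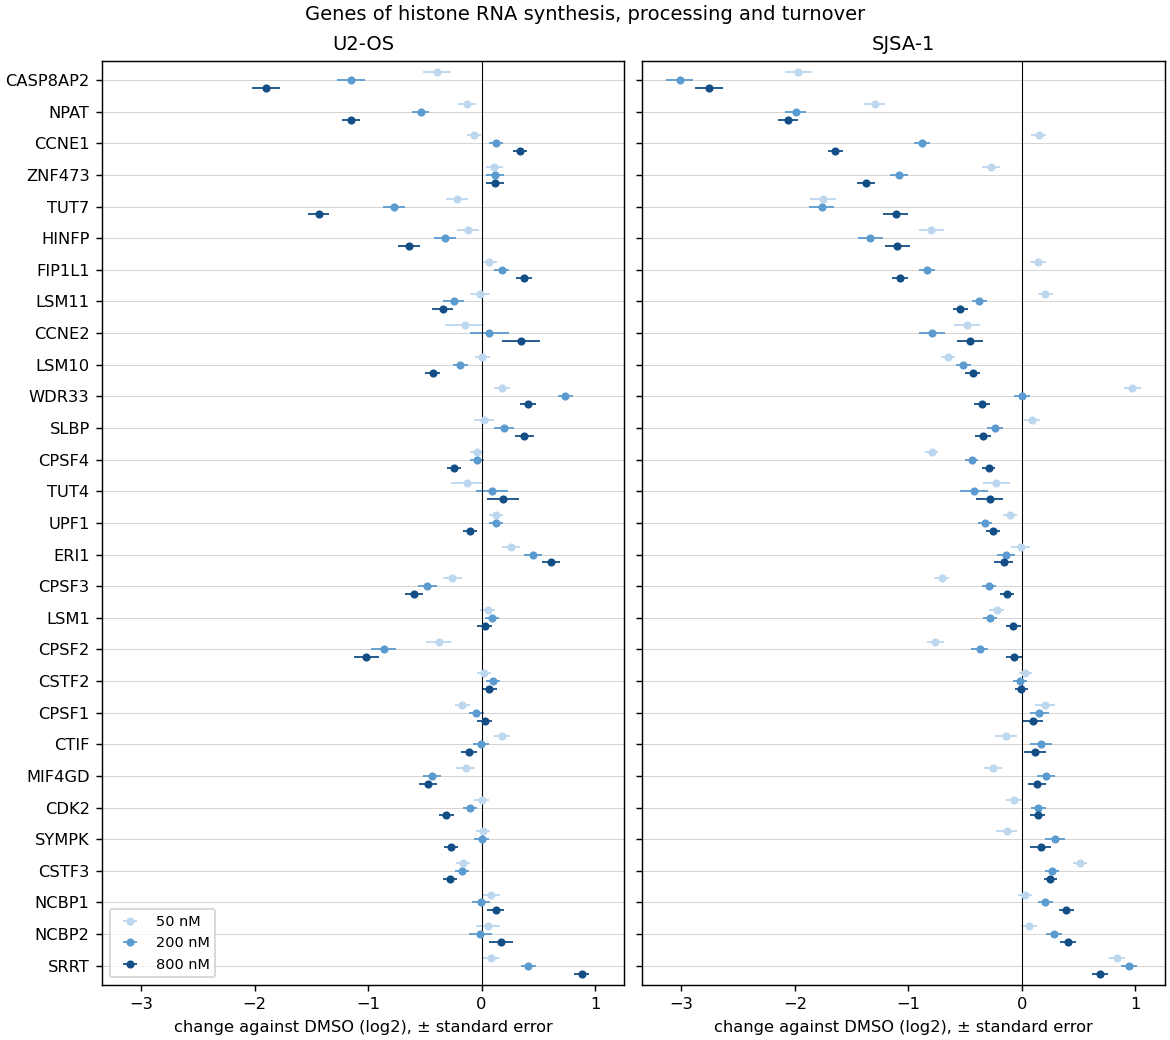
Change against DMSO on the log2 scale (± standard error) of the 29 genes of histone RNA synthesis, processing and turnover at 50, 200 and 800 nM in U2-OS and SJSA-1. CASP8AP2 and NPAT lie at the negative end in SJSA-1, at -3.01 and -1.99 at 200 nM, and fall in U2-OS at 200 and 800 nM.

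Replication-independent variants changed in both directions. Of 11 measured, 3 were higher and 2 lower at 200 nM in SJSA-1 with a median of 0.03, near the shares of all probe sets, and 0 and 1 in U2-OS. H2AJ, an H2A variant, rose in SJSA-1 by 2.15, and H1-10, a linker histone variant, by 1.24. CENPA, the H3 variant of centromeres, fell by 1.45, and H2AX, the variant marked at DNA breaks, by 0.25. MACROH2A2 fell by 1.11 in U2-OS at 800 nM. H2AZ1 and the H3.3 gene H3-3B, both bright, changed by 0.03 and -0.11 at 200 nM in SJSA-1 and did not pass (adjusted p = 0.69 and 0.114).

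Among 18 histone chaperones, 5 were higher and 7 lower at 200 nM in SJSA-1, and 1 and 4 in U2-OS. HJURP, the CENPA chaperone, fell by 2.78 in SJSA-1 at 800 nM, and CHAF1A and ASF1B, which place H3 and H4 on new DNA, fell by 1.35 and 0.36. In U2-OS CHAF1A fell by 1.22 and ASF1B by 1.57 at that dose. The chaperone subunits UBN1 and HIRA fell in SJSA-1 by 1.08 and 0.52, and HIRA changed by -0.80 in U2-OS without passing (adjusted p = 0.138).

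Genes of S phase changed in both directions. Of 29 measured, 5 were higher and 13 lower at 200 nM in SJSA-1 with a median of -0.02, and 8 and 11 at 800 nM. In U2-OS 0 were higher and 6 lower at 200 nM, and 2 and 11 at 800 nM. MCM10 fell by 1.58 and RFC4 by 1.27 in SJSA-1 at 200 nM, and GINS1, a subunit of the replicative helicase complex, fell by 1.5 in U2-OS at 800 nM. The replication factors DTL and CDT1 fell in SJSA-1 by 1.06 and 0.81 at 800 nM. PCNA, the sliding clamp, changed by 0.19 at 200 nM and 0.09 at 800 nM in SJSA-1.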

How the data were processed

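RNA of U2-OS and SJSA-1 cells was measured on 24 PrimeView arrays, 3 in each of 8 groups, grouped and numbered as the sample titles give them. The deposited values are intensities of probe sets on a linear scale, which the authors made with RMA including quantile normalization, while MAS5 also stands in the processing notes of the submitters. The deposited log2 values lie on whole hundredths. Depth has no counterpart on arrays, where the number of arrays and the signal over background limit the precision.

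Log2 intensities with no pseudocount went into lmFit and eBayes of limma 3.58.1 (R 4.3.3), per line over its 4 groups, and over 8 groups for differences between the lines, with Benjamini-Hochberg adjustment over 49293 probe sets and calls at an adjusted p under 0.05. Symbols came from the platform annotation, brought up to date through RefSeq on GRCh38.p14. The members, lists and rules were chosen with earlier results of these data known. Named members are the largest rises and falls at 200 and 800 nM whose arrays do not overlap with DMSO, the largest differences between the lines, and the brightest probe set of each class. From the gene lists (histone RNA, variants, chaperones, S phase) those with the largest change at 800 nM were named, by the brightest probe set of each gene. H1-3, H1-5, H1-6, H2AC11, H2AC16, H2BC6, H2BC7, H2BC20P, H3C2, H3C3, H3C12, H2AC1, H2BC1, H2AC15, H2AC20, H2BC17, H3C10, H4C4, H4C9, SLBP, LSM10, LSM11, H2AZ1, H3-3B and PCNA fall outside these rules and were chosen after their values were seen. Osteoblast, neuronal and glial, and leukocyte and endothelial markers served as a check.

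Alternatives changed 1 choice at a time: filters on low values, pseudocounts of 1 and 16, shifts by the array controls, repeated quantile normalization, other variance models, the arrays fitted together, a block for the replicate number, the methods' t-test, and each array left out. Splits at an intensity of 100, by the DMSO mean and then by the mean over a line, were added after seeing the data. Tested on simulated data over 49293 probe sets, the fit recovered 61.3% of probe sets changed by 0.5 on the log2 scale for U2-OS at 200 nM, 70% for SJSA-1 at 200 nM and 45% of such differences between the lines at 200 nM. For changes of 0.25 the shares were 2.5%, 6.25% and 1.25%. Far fewer probe sets were changed in the simulation than were called in the data, so these shares may differ from those of the real fit. Figures used matplotlib 3.10.9 in Python 3.11.15.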

Additional observations from a re-analysis of the deposited data

Results flagged for a closer look

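The response of 11 histone probe-set results differed between the lines by a test of the difference itself, the response of SJSA-1 less that of U2-OS as a log2 value in 1 limma fit of 24 arrays. They are the 5 largest differences above 0 at 200 nM and at 800 nM and the 1 called below 0 at 800 nM, and differences at 50 nM were not part of this choice. At 200 nM the difference was 3.26 for H2AC8 by probe set 11731693_at (adjusted p = 8.67e-12) and 2.85 by 11731694_s_at, 2.66 for H2AC17 by 11740124_at and 2.62 by 11740125_x_at, and 2.29 for H2BC21 by 11717090_a_at. At 800 nM it was 3.10 for H2AC17 by 11740124_at and 2.97 by 11740125_x_at, 3.08 for H2AC8 by 11731693_at and 2.41 by 11731694_s_at, and 2.19 for H2BC8 by 11734796_s_at. H2BC4 by 11759760_s_at had a difference of -0.57 at 800 nM (adjusted p = 0.0119). Probe sets of 1 gene are not independent of each other, and the differences rest on 3 arrays in each group.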

How the results depend on the processing

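Counts are of members called higher or lower, and alternatives with no value below stayed within 1.5 times the count reported. The cause of a change was not tested, except that filters and left-out arrays reduce the probe sets or samples tested. Signal over background limits the dim members.

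Shifted by the poly-A controls, members higher and lower were 0 and 95 in U2-OS at 200 nM, 1 and 105 at 800 nM and 2 and 96 from 50 to 800 nM, with 0 lower at 50 nM. In SJSA-1 they were 14 and 25 at 50 nM, 29 and 8 at 200 nM, 28 and 23 at 800 nM and 12 and 0 from 50 to 800 nM. The difference between the lines was above 0 for 13 at 50 nM and 41 at 200 nM and below for 0 at 800 nM, and in DMSO 2 were higher and 98 lower. Shifted by both kinds of control, they were 1 and 25, 5 and 82 in U2-OS at 200 and 800 nM, 6 and 81 from 50 to 800 nM, and 22 and 14, 40 and 4, 34 and 12 in SJSA-1, with 2 lower from 50 to 800 nM. The difference between the lines was then above 0 for 21 and below for 9 at 50 nM, above for 45 at 200 nM and below for 0 at 800 nM, and in DMSO 8 were higher and 80 lower. Shifted by the hybridization controls, 8 and 14 were higher in U2-OS at 50 and 200 nM, 1 lower at 800 nM and 1 lower from 50 to 800 nM. In SJSA-1 40 were higher and 4 lower at 50 nM, 52 and 2 at 800 nM, and 2 lower from 50 to 800 nM, and the difference between the lines was above and below 0 for 24 and 13, 38 and 4, and 27 and 11.

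Directions of single probe sets turned with these shifts. With the poly-A controls, changes in U2-OS at 800 nM were -0.086 and -0.19 for H2BC4, -0.25 for H2AC7 and -0.30 for H2BC11 11741699_at. They were -0.79 for H1-2, -0.58 for H2AC18 and H2AC19, -0.86 for H2BC12 11717099_at, -0.56 for H3C4 and -0.88 for H4C3. At 200 nM they were -0.088 for H3C1 11759077_at, -0.22 for H4C12, -0.53 for H1-2, -0.48 for H2AC18 and H2AC19, -0.46 for H3C4 and -0.51 for H4C3. In SJSA-1 they were -0.15 for H1-2 and -0.13 for H2BC12 11717099_at at 800 nM, and -0.15 for H2BC12 11717099_at at 200 nM. With both controls, changes in U2-OS at 800 nM were -0.36 for H1-2, -0.15 for H2AC18 and H2AC19 and -0.43 for H2BC12 11717099_at. They were -0.13 for H3C4 and -0.45 for H4C3 there. In SJSA-1 they were -0.0023 for H1-2 at 800 nM and -0.021 for H2BC12 11717099_at at 200 nM.

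With probe sets above 100 in DMSO only, 2 were lower in U2-OS at 50 nM, 0 and 4 higher at 200 and 800 nM and 6 from 50 to 800 nM, and in SJSA-1 8, 8 and 7 were higher, 0 lower at 50 nM, and 2 higher and 2 lower from 50 to 800 nM. The difference between the lines was above 0 for 7, 7 and 5, and in DMSO 3 were higher and 5 lower. With a mean over the arrays above 100, 2 were lower at 50 nM and 2, 6 and 7 higher in the same U2-OS comparisons, 12, 12 and 11 higher, 0 lower, and 6 higher and 2 lower in those of SJSA-1, 11, 12 and 10 above 0 for the difference, and 3 and 10 higher and lower in DMSO. With all 24 arrays in 1 fit, 2 were lower in U2-OS at 50 nM, and 0 and 3 in SJSA-1 at 800 nM and from 50 to 800 nM. With only the groups compared, 0 were lower in SJSA-1 at 800 nM. A pseudocount of 16 left 1 lower in U2-OS at 800 nM and gave 3 below 0 for the difference at 800 nM, repeated quantile normalization 3 and trended, robust variances 2.

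The methods' t-test with Benjamini-Hochberg adjustment called 0 lower in U2-OS at 50 nM, 1 higher and 0 lower at 200 nM, and 14 and 1 at 800 nM. In SJSA-1 it called 0 lower at 50 nM, and 15 higher and 0 lower from 50 to 800 nM. Unadjusted, it called 2 higher and 4 lower in U2-OS at 50 nM. Correlations of deviations between arrays of the same replicate number lay between -0.46 and 0.29 for U2-OS and between -0.42 and 0.24 for SJSA-1. Of 18 pairs in each line, 5 and 3 exceeded 0.1. With 3 arrays in each group, these correlations cannot settle whether the replicate numbers pair the arrays. With the replicate number as a block, 1 instead of 2 were lower in U2-OS at 800 nM and 0 instead of 1 in SJSA-1 at 800 nM, and no other count moved by over 1.5 times.

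With each array left out in turn, members higher ranged from 0 to 0, 4 to 8 and 22 to 33 in U2-OS at 50, 200 and 800 nM and lower from 1 to 1, 2 to 4 and 1 to 3. In SJSA-1 they ranged from 64 to 76, 81 to 87 and 74 to 83 higher, and from 1 to 1, 0 to 0 and 0 to 1 lower. From 50 to 800 nM the ranges were 28 to 36 higher and 0 to 0 lower in U2-OS and 23 to 27 and 2 to 6 in SJSA-1. The difference between the lines ranged from 56 to 63, 69 to 74 and 47 to 50 above 0, and from 0 to 0, 0 to 0 and 1 to 3 below, and in DMSO 29 to 34 were higher and 24 to 30 lower. Of larger counts, 4 arrays moved those higher in U2-OS at 200 nM to 4 (DMSO replicates 1 and 3, 200 nM replicates 1 and 2), and 3 moved those lower in SJSA-1 from 50 to 800 nM (to 3 without 50 nM replicate 1, to 2 without 800 nM replicate 2 or 3). H4C12 at 200 nM in U2-OS was lost without DMSO replicate 1 or 3 or 200 nM replicate 2 (adjusted p = 0.115, 0.0852 and 0.0966 from limma).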

Other observations

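A probe set shared by the H3 genes H3C13, H3C14 and H3C15 and by H3-7, which the rule for members leaves out because 1 of its symbols lies outside it, rose by 0.95 on the log2 scale at 800 nM in U2-OS (adjusted p = 2.41e-06 from limma). In SJSA-1 it rose by 0.81, 2 and 2.38 at 50, 200 and 800 nM, with an adjusted p of 3.72e-10 at the highest dose. H3-4, a gene of the testis H3 protein that the rule leaves out as well, rose by 0.46 in SJSA-1 at 200 nM and changed by 0.07 in U2-OS, where it did not pass (adjusted p = 0.643).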
